A study of Marmota monax with 203 samples.

Results

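The genes described here are 10 transcripts used to recognise Kupffer cells and other macrophages in liver: CD68, CD14, CD163, MARCO, MRC1, SIGLEC1, VSIG4, TIMD4, ITGAM and CSF1R. They were chosen by symbol, and all 10 were present among the 17587 genes listed in the tables. In the liver of woodchucks given woodchuck interferon-α (wIFN-α), these genes did not move as a block. SIGLEC1 was higher than in placebo animals at all 5 biopsy weeks under treatment, up to 3.75-fold at week 15, and TIMD4 was 1.61-fold higher at week 15. ITGAM was lower at weeks 0, 3 and 7, to 0.482 of the placebo level at week 0. CD163 was also called lower, at weeks 7, 11 and 15, but each of these calls was lost without placebo animal M1008. MARCO, CD14 and CSF1R were called at no week, and MRC1 was called, as lower, only in some alternative fits of weeks 0 and 7.

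The animals were woodchucks (Marmota monax) with chronic woodchuck hepatitis virus (WHV) infection, established with strain WHV7-11 at 3 days of age. Liver biopsies were taken before, during and after dosing with placebo (vehicle) or recombinant wIFN-α, given subcutaneously to adult males and females. The wIFN-α animals received 20 μg per dose for 7 weeks and 100 μg per dose for the next 8 weeks, and their on-treatment biopsies followed a dose by 6 h. Weeks are study weeks, so that week 0 is the first dose, weeks 0 and 3 fall under the 20 μg dose, weeks 7, 11 and 15 under the 100 μg dose, and weeks -3, 19 and 23 lie outside treatment. From week -3 to week 23, in order, the placebo group had 12, 12, 12, 12, 10, 9, 5 and 9 animals and the wIFN-α group 11, 11, 9, 9, 8, 8, 6 and 6. All animals carried the virus, so that no comparison with uninfected liver was made. Animals that died left the later weeks, and some living animals lacked biopsies at single weeks. Placebo animal M1009 had none at weeks 11, 15 and 19, and wIFN-α animal M1002 none at weeks 19 and 23. Poly(A) RNA was sequenced, and each biopsy held 12072840 to 84805845 reads on the listed genes (median 28754894). Levels are given as CPM, the counts of a gene scaled to a common library size, and per kilobase of transcript where genes are compared with each other.

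Kupffer cells are the resident macrophages of the liver sinusoids, where they take up microbes, dying cells, immune complexes and haemoglobin from portal blood. They are maintained through CSF1R, the receptor for the growth factors CSF1 and IL34, and can be joined by macrophages that derive from blood monocytes. Several of the surface receptors they carry are scavenger or phagocytic receptors, and SIGLEC1 is also known as a gene that type I interferon induces in monocytes and macrophages. A biopsy is a mixture of cells, and fewer cells of a type and less RNA per cell cannot be told apart in these data.

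Some libraries stood apart. Skeletal muscle transcripts made up more than 1% of the reads in 21 of 149 biopsies (median of all biopsies, 0.0449%). The largest shares were 13.9% in placebo animal F1016 and 13.8% in F1018 of the wIFN-α group, both at week -3, and in the latter MARCO had 0 reads, which allows up to 0.113 CPM (3 reads; counting error only). In the library labelled wIFN-α, week 3, animal F1013, all 6 interferon-induced genes examined (MX1, ISG15, OAS1, RSAD2, IFIT1 and IFIT3) lay within or below the placebo range and under the other 8 wIFN-α libraries. For example, IFIT3 was 9.20 CPM there, 656 to 2056 CPM in the other wIFN-α libraries and 6.81 to 17.9 CPM in placebo. The calls of week 3 are therefore also given without it. As a group comparison these 6 genes were higher at each of the 5 weeks under treatment, with a median log2 fold change of 5.64 at week 15.

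In placebo liver the members differed widely in level per kilobase. CD68, a glycoprotein of macrophage lysosomes, had the highest median level (66.3 CPM per kilobase, n = 81 biopsies of 12 animals), followed by CD14, the co-receptor for bacterial lipopolysaccharide (45.5). MARCO (10.1), CSF1R (9.05), TIMD4 (7.36), VSIG4 (5.31) and MRC1 (5.12) formed a middle group in which each neighbour differed from the next by less than their SDs. SIGLEC1 (2.49), ITGAM (1.10) and CD163 (0.647) were lowest, and the last 2 of these did not differ beyond their spread either. CD68 and CD14 also differed by less than the SD of CD68 (64.4 ± 25.2 and 46.0 ± 9.27 CPM per kilobase).

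**Figure D1:**
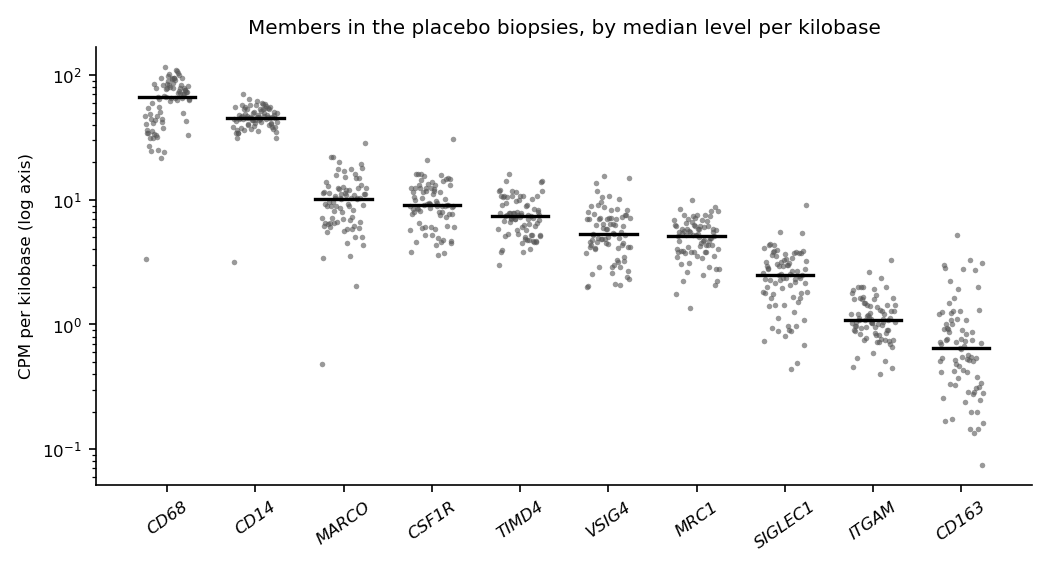
Level of each member in the 81 placebo biopsies, in CPM per kilobase on a log axis, ordered by the median (bar); each point is 1 biopsy. CD68 and CD14 lie above the other 8 genes, with medians of 66.3 and 45.5, and CD163 is lowest and most widely spread.

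How much of this spread followed the animal differed between members. Of the variance of log2(CPM + 1) among placebo biopsies, differences between animals made up 75.2% for CD163, the scavenger receptor for haemoglobin bound to haptoglobin, 72.8% for SIGLEC1 and 67.1% for CSF1R. They made up 2.97% for CD68 and 0% for CD14. These shares cover all placebo biopsies, without removing study week or the biopsies rich in muscle reads. The lowest CD68 and CD14 values both came from F1016 at week -3, a biopsy with 13.9% muscle reads. CD68 also rose over the weeks in placebo, as given below. The low shares therefore do not show that animals were alike in these 2 genes, and shares without these sources of spread were not tested. The median CD163 level of a placebo animal ranged from 0.802 CPM in M1011 to 12.5 CPM in M1008, a 15.6-fold difference, against 1.57-fold for CD14. M1008 also had the highest animal median of CSF1R and MRC1, and F1021 the lowest of MARCO, CSF1R, MRC1, SIGLEC1 and ITGAM.

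Among biopsies taken off interferon that held at most 1% muscle reads (n = 88 from 22 animals, several biopsies an animal), the members were correlated to different degrees. Pearson's r of log2(CPM + 1) was 0.91 between SIGLEC1 and CSF1R, 0.85 between VSIG4 and CSF1R, 0.82 between MARCO and VSIG4 and 0.82 between VSIG4 and SIGLEC1. CD14 had r of -0.24 against SIGLEC1 and -0.20 against CSF1R, and its highest value was 0.33, against CD68. Over all 45 pairs the median r was 0.31, 17 pairs were above 0.5 and 12 were below 0. These values describe biopsies that share animals and sequencing, and no p-value was attached to them.

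Before treatment, no member was called different between the groups at week -3 (edgeR, adjusted p of 1 for each), as no gene of 14963 was. Every member's log2 difference was smaller than its standard error there, and none had an unadjusted p under 0.05, a level that 0.855% of all genes tested reached. That share is smaller than chance alone would give at this level. The lack of calls at week -3 therefore does not show that the groups were alike. Under treatment, calls required an adjusted p below 0.05 together with a change of more than 1.5-fold. At week 0, 2 members were higher (10.3% of all genes tested were) and 1 lower (8.12%). At week 3, 1 was higher (7.24%) and 1 lower (3.5%), and at week 7, 1 was higher (11.4%) and 3 lower (10.1%). At week 11, 2 were higher (12.5%) and 1 lower (7.97%), and at week 15, 2 were higher (13.4%) and 1 lower (8.82%). Counts of 1 to 3 among 10 members are too small to be set apart from those shares.

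**Figure D2:**
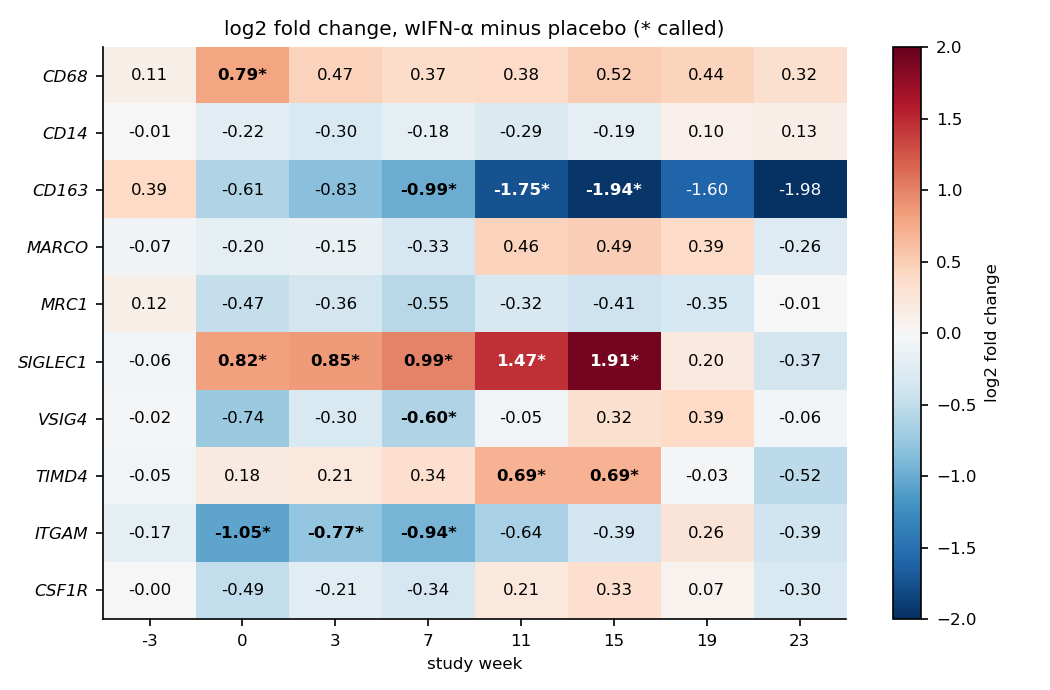
Log2 fold change of each member (rows) at each study week (columns), wIFN-α minus placebo, from red (higher) to blue (lower); an asterisk marks a call (adjusted p below 0.05, more than 1.5-fold). SIGLEC1 is marked at all 5 weeks under treatment, CD163 at weeks 7, 11 and 15, and no member is marked at weeks -3, 19 or 23. Some unmarked values are smaller than their standard error, and their sign gives no direction.

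Of the pattern and scavenger receptors, CD68 was called at the first dose only. At week 0 it ranged from 69.2 to 212 CPM in wIFN-α animals (median 129) and from 43.9 to 147 CPM in placebo animals (median 66.7). Of the 11 treated animals, 5 exceeded the highest placebo animal and 11 the placebo median. The log2 fold change was 0.79 ± 0.21 (SE; edgeR, adjusted p = 0.00428). At weeks 7, 11 and 15 CD68 was also higher at an adjusted p of 0.0109, 0.0155 and 0.00121, but with fold changes of 1.297, 1.301 and 1.429 it stayed under the 1.5-fold limit. The ranges at week 15 were 174 to 251 CPM (median 190) with wIFN-α and 114 to 188 CPM (median 136) with placebo.

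CD14 moved the other way and little. At week 11 it was 65.3 to 93.1 CPM (median 76.3) with wIFN-α and 78.8 to 113 CPM (median 99.4) with placebo, and 5 of 8 wIFN-α animals lay below every placebo animal. Its log2 fold change was -0.29 ± 0.07 (adjusted p = 0.00542) at week 11 and -0.30 ± 0.10 (adjusted p = 0.0313) at week 3, both smaller than 1.5-fold.

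CD163 showed the largest decreases among the members. At week 7 it was 0.443 to 4.63 CPM (median 1.52) with wIFN-α and 1.03 to 12.1 CPM (median 2.84) with placebo. At week 11 the values were 0.0419 to 2.29 CPM (median 0.815) and 0.620 to 14.2 CPM (median 2.25). At week 15 they were 0 to 3.67 CPM (median 0.253) and 0.578 to 11.8 CPM (median 2.20), with 6 of 8 wIFN-α animals below every placebo animal. F1013 was highest of the wIFN-α animals at week 15 (3.67 CPM), and F1020 had 0 reads, which allows up to 0.144 CPM. The raw counts at week 15 were 0 to 29 reads in the other 7 wIFN-α animals and 20 to 742 in placebo.

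At weeks 7, 11 and 15 the log2 fold change of CD163 was -0.99 ± 0.40, -1.75 ± 0.64 and -1.94 ± 0.77 (edgeR, adjusted p = 0.0469, 0.0396 and 0.0499). These calls were close to the threshold: that at week 15 was lost in 12 of 17 fits that left out 1 animal, and also without the filter on low counts, with the deepest run only, with sex as a covariate and without biopsies rich in muscle reads (adjusted p of at most 0.0674). Without placebo animal M1008, which carried the highest value at each of these weeks, the change was -0.65 at week 7 (adjusted p = 0.117), -1.09 at week 11 (adjusted p = 0.117) and -1.28 at week 15 (adjusted p = 0.148). Without F1013 it was -3.08 at week 15 (adjusted p = 0.00283). With the animal as a replicate block (limma-voom over all weeks) it was -1.17 at week 7 (adjusted p = 0.0675), which ends that call, and -2.98 at week 15 (adjusted p = 0.000937). After treatment the differences remained of similar size but were not called, at -1.60 ± 0.79 at week 19 (adjusted p = 0.419) and -1.98 ± 0.77 at week 23 (adjusted p = 0.277). Without M1008 they were -0.54 and -1.20 (adjusted p = 0.829 and 0.308).

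**Figure D3:**
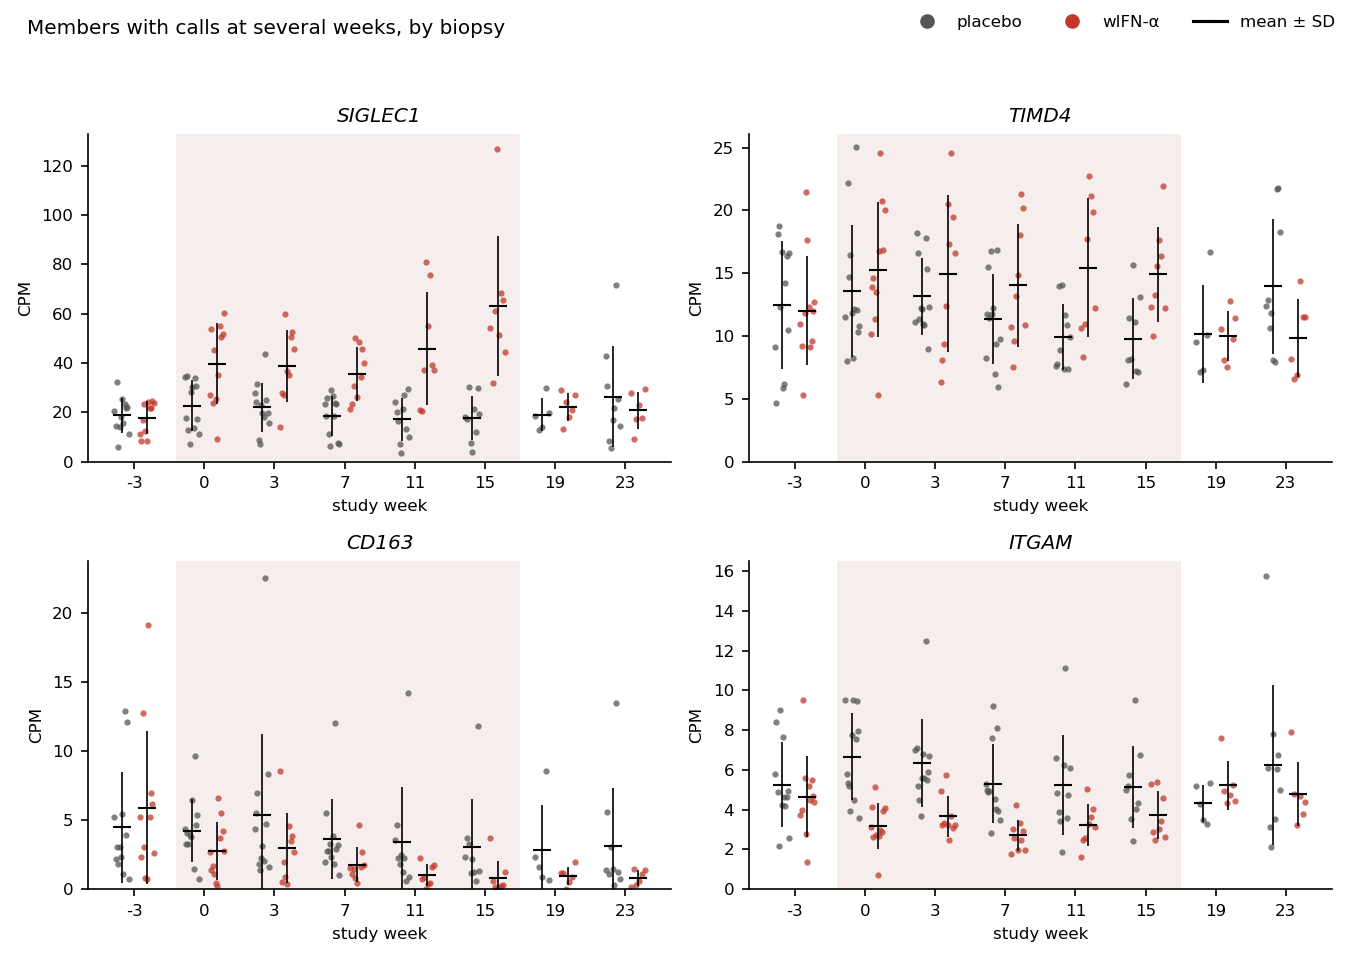
CPM of SIGLEC1, TIMD4, CD163 and ITGAM in each biopsy by study week, placebo (grey) and wIFN-α (red), with the mean ± SD of each group; shading marks the weeks under treatment. All 8 wIFN-α animals lie above the 9 placebo animals for SIGLEC1 at week 15, and the high CD163 values in placebo at weeks 11 and 15, 14.2 and 11.8 CPM, belong to M1008.

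MRC1, the mannose receptor of macrophages and also of sinusoidal endothelium, was lower at week 7 by less than the fold limit. It was 9.82 to 29.9 CPM (median 18.3) with wIFN-α and 18.2 to 39.0 CPM (median 28.8) with placebo, and 4 of 9 wIFN-α animals were below every placebo animal. The log2 fold change was -0.55 ± 0.16 (adjusted p = 0.00709). It passed the limit at week 7 without biopsies rich in muscle reads (-0.60, adjusted p = 0.00317) and on leaving out M1003 or M1007, with changes of -0.66 to -0.47 over the 9 fits that left out 1 wIFN-α animal. The replicate block also brought it past the limit at week 7 (-0.67, adjusted p = 0.0365) and at week 0 (-0.71, adjusted p = 0.0229), where the unblocked value was -0.47 ± 0.31 (adjusted p = 0.255). MARCO, a class A scavenger receptor that binds bacteria, ranged widely and its groups overlapped at every week. At week 15 it was 10.7 to 56.3 CPM (median 24.8) with wIFN-α and 4.22 to 33.8 CPM (median 21.3) with placebo (0.49 ± 0.35, adjusted p = 0.278).

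Of the phagocytic receptors, SIGLEC1 (CD169, a sialic acid-binding receptor) changed most. It belongs to a list that the study drew from these same animals, so that its direction is not independent evidence. At week 0 it was 9.20 to 60.2 CPM (median 45.3) with wIFN-α and 7.33 to 34.8 CPM (median 23.02) with placebo, and 7 of 11 treated animals exceeded the highest placebo animal. At week 3 it was 13.9 to 59.9 CPM (median 36.7) and 7.02 to 43.6 CPM (median 21.5), with F1013 the lowest wIFN-α animal. At week 7 it was 21.4 to 50.4 CPM (median 34.4) and 6.43 to 29.2 CPM (median 21.0), and at week 11 20.7 to 80.8 CPM (median 38.2) and 3.48 to 29.3 CPM (median 18.2), with 6 wIFN-α animals above every placebo animal at each of these weeks. At week 15 all 8 wIFN-α animals, 31.97 to 127 CPM (median 57.6), lay above all 9 placebo animals, 3.88 to 30.3 CPM (median 18.3). Such a separation upward was seen in 7.36% of genes at that week. F1020 was the highest wIFN-α animal at weeks 3, 7, 11 and 15, and F1021 the lowest placebo animal at each of these weeks and at week 0.

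The log2 fold change of SIGLEC1 was 0.82 ± 0.29, 0.85 ± 0.27, 0.99 ± 0.26, 1.47 ± 0.37 and 1.91 ± 0.35 at weeks 0, 3, 7, 11 and 15 (edgeR, adjusted p = 0.0288, 0.0307, 0.00407, 0.00396 and 0.000265). Without F1013 the value at week 3 was 0.96 (adjusted p = 0.00864). Without biopsies holding over 1% muscle reads it was 1.00 at week 3 and no longer called (adjusted p = 0.0507). The call at week 0 was lost on leaving out any 1 of M1003, M1012 or F1014, and that at week 3 on leaving out any 1 of M1003, M1007 or F1020 (highest adjusted p, 0.0519 and 0.0678). At week 19 the groups overlapped, with 13.4 to 29.1 CPM (median 22.6) in 6 wIFN-α animals and 19.8, 12.97, 14.1, 29.8 and 18.5 CPM in the 5 placebo animals M1011, F1019, M1005, M1008 and F1016.

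TIMD4 (TIM-4, a phosphatidylserine receptor for dying cells) was higher than in placebo animals late in treatment. Its mean with wIFN-α was 15.3 CPM at week 0 and 14.9 CPM at week 15. In placebo the mean was 13.6 CPM at week 0 and 9.80 CPM at week 15. The late calls thus went with a lower placebo level, not with a higher level under wIFN-α than at week 0. Placebo animal M1009, which had the highest animal median of TIMD4 (16.3 CPM), had no biopsy at weeks 11 and 15. The part of its absence in the lower placebo level was not tested. It too was placed in a list of the study, of genes called under the high dose. At week 11 it was 8.29 to 22.7 CPM (median 14.98) with wIFN-α and 7.36 to 14.1 CPM (median 9.39) with placebo. At week 15 it was 9.97 to 21.9 CPM (median 14.4) and 6.22 to 15.7 CPM (median 8.15). The groups overlapped, but 8 of 8 wIFN-α animals were above the placebo median at week 15 and 3 above every placebo animal. The log2 fold change was 0.69 ± 0.20 at both weeks (adjusted p = 0.0102 and 0.00896), and it was 0.34 ± 0.20 at week 7 (adjusted p = 0.169).

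VSIG4, a complement receptor for C3b-coated particles typical of resident Kupffer cells, was called lower at week 7 only. It was 4.88 to 14.7 CPM (median 7.16) with wIFN-α and 5.44 to 22.7 CPM (median 12.9) with placebo, with overlapping groups (-0.60 ± 0.24, adjusted p = 0.0447). This call was lost on leaving out any 1 of 6 of the 9 wIFN-α animals, with an adjusted p of at most 0.0857, without M1008 (-0.55, adjusted p = 0.0711), and in the fits with limma-voom, no filter, the deepest run, M1004 or all 16 groups (at most 0.102). At week 0 VSIG4 was 1.11 to 13.2 CPM (median 8.22) with wIFN-α and 6.10 to 28.9 CPM (median 11.2) with placebo (-0.74 ± 0.30, adjusted p = 0.0589). The replicate block gave -0.84 there (adjusted p = 0.00772), past the threshold, and so did the fit without biopsies rich in muscle reads (-0.75, adjusted p = 0.0390). VSIG4 was also called lower at week 0 by DESeq2 and in the fit of all 16 groups. Leaving out any 1 of M1012, F1023, M1011 or F1019 gave the call as well.

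ITGAM encodes the αM chain of complement receptor 3, which monocytes and neutrophils carry as well as macrophages. At the first dose ITGAM was lower than in placebo animals. Its median at week -3 was 4.50 CPM with wIFN-α and 4.76 CPM with placebo. The median at week 0 was thus lower than before with wIFN-α and higher with placebo, and these changes were not tested. At week 0 it was 0.717 to 5.15 CPM (median 2.98) with wIFN-α and 3.58 to 9.49 CPM (median 6.67) with placebo. The lowest of these came from F1023, whose biopsy held 7.54% muscle reads. All 11 wIFN-α animals were below the placebo median and 7 below every placebo animal. At week 7 it was 1.78 to 4.23 CPM (median 2.58) and 2.81 to 9.19 CPM (median 4.90), with 5 of 9 below every placebo animal. The log2 fold change was -1.05 ± 0.23, -0.77 ± 0.18 and -0.94 ± 0.21 at weeks 0, 3 and 7 (edgeR, adjusted p = 0.00102, 0.00466 and 0.000703), and -0.83 at week 3 without F1013 (adjusted p = 0.00283). It was -0.64 ± 0.28 at week 11 (adjusted p = 0.0757) and -0.39 ± 0.24 at week 15 (adjusted p = 0.210), where the groups overlapped.

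CSF1R, the growth factor receptor, was called at no week. Its estimates ran from -0.49 ± 0.25 at week 0 (adjusted p = 0.146) to 0.33 ± 0.27 at week 15 (adjusted p = 0.334). At week 0 it was 10.1 to 72.7 CPM (median 36.7) with wIFN-α and 30.4 to 83.3 CPM (median 58.7) with placebo, and 5 of 11 wIFN-α animals lay below every placebo animal. At week 15 it was 27.5 to 90.6 CPM (median 51.1) and 19.4 to 75.8 CPM (median 46.2).

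**Figure D4:**
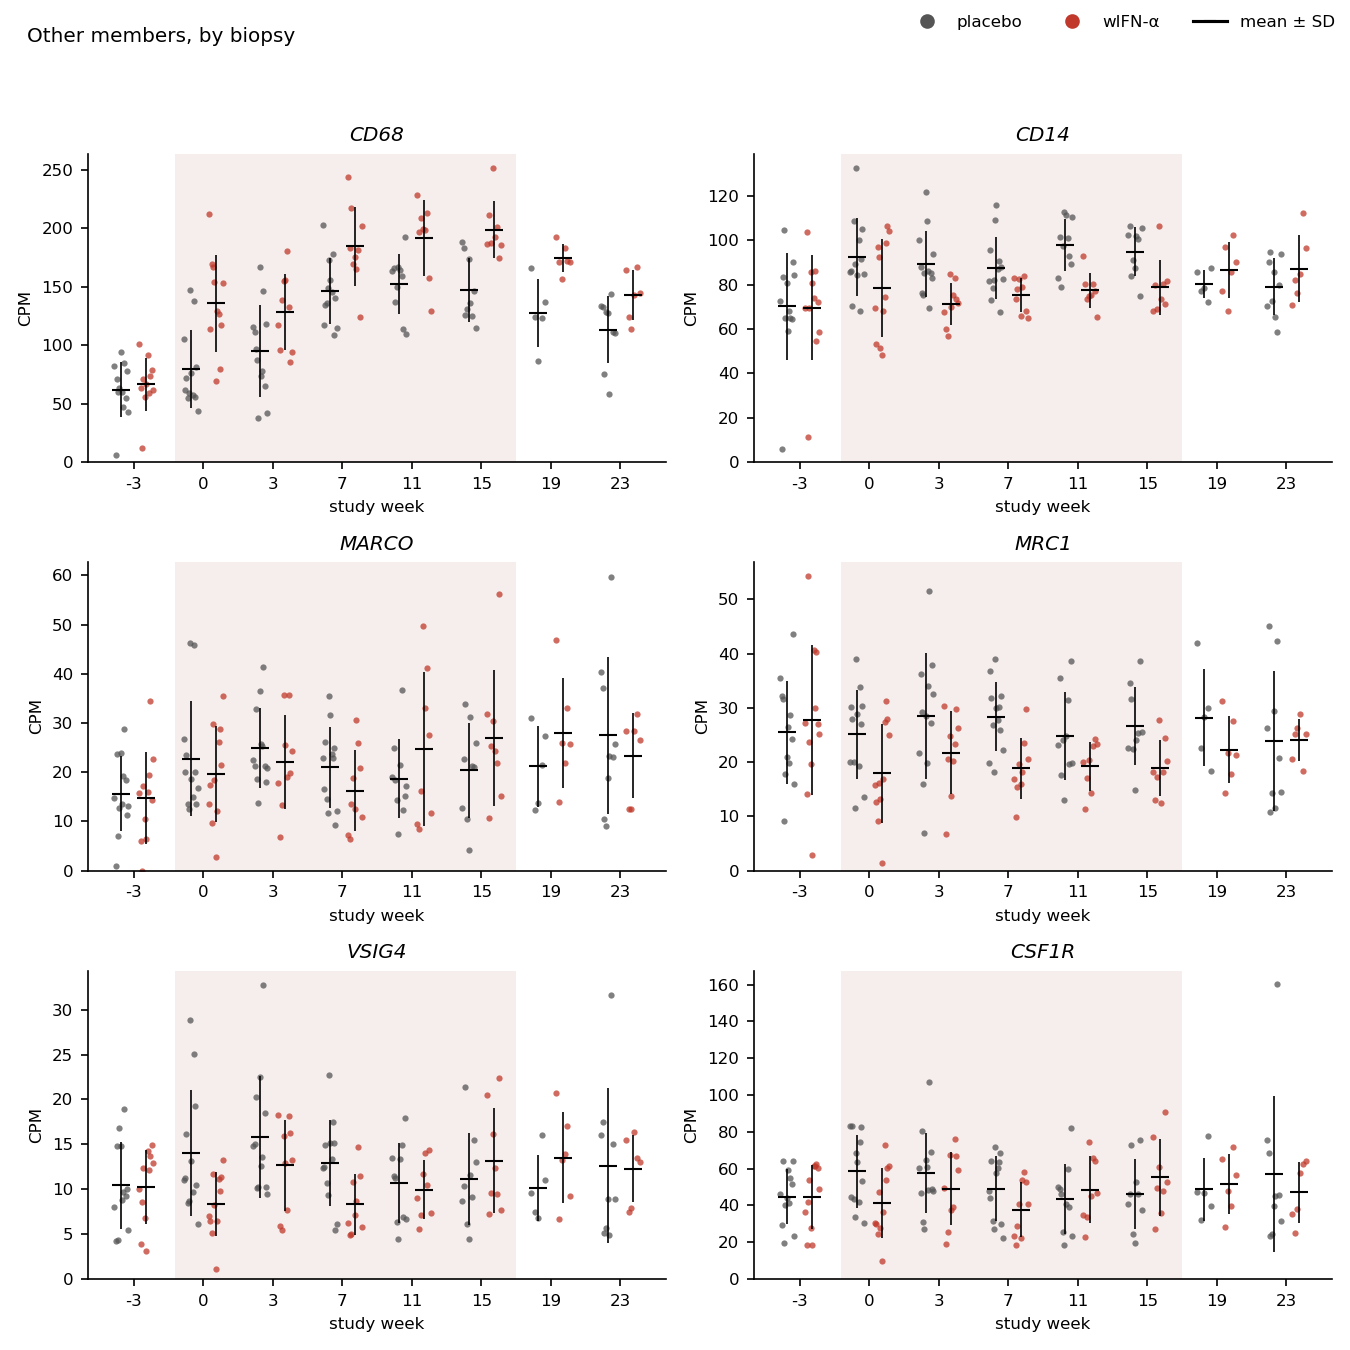
CPM of CD68, CD14, MARCO, MRC1, VSIG4 and CSF1R in each biopsy by study week, placebo (grey) and wIFN-α (red), with the mean ± SD of each group; shading marks the weeks under treatment. CD68 is higher at weeks 7, 11 and 15 than at weeks 0 and 3 in placebo, and the placebo values of CSF1R and VSIG4 at week 23 include 1 high animal, M1008, at 160 and 31.6 CPM.

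The effects late in treatment, early in treatment and after its end were compared as differences of effects over all 16 groups. Dose and length of treatment change together between weeks 0 and 3 and week 15 and cannot be told apart. Between week 15 and the mean of weeks 0 and 3, no member differed at an adjusted p under 0.05 by edgeR without a replicate block (upward, 1.93% of genes did, and downward 0.327%). In that fit 2 members, SIGLEC1 and VSIG4, had an unadjusted p under 0.05, as 2314 of 16232 genes did. SIGLEC1 differed by 1.05 ± 0.40 (adjusted p = 0.160). With the animal as a replicate block, here a term per animal in edgeR, 839 of 16232 genes were called higher. The 3 members among them were SIGLEC1 (1.01, adjusted p = 0.00416), CSF1R (0.71, adjusted p = 0.00873) and VSIG4 (0.73, adjusted p = 0.0471). Between weeks 0 and 3 the effects of the members differed by at most their standard errors for all but CD68 and VSIG4, and none was called by edgeR or had an unadjusted p under 0.05 (0.524% of genes were higher and 1.87% lower).

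Between week 15 and week 23, 2 members were called higher (14.6% of genes were) and none lower (10.3%). The effect of SIGLEC1 was larger at week 15 by 2.23 ± 0.51 on the log2 scale (adjusted p = 0.000396) and that of TIMD4 by 1.17 ± 0.36 (adjusted p = 0.00961). The replicate block added MRC1, lower by 0.67 at an adjusted p of 0.0421 against 0.486 without the block. With the block, 2275 of 16232 genes were called lower. The effect of CD163 differed between these weeks by far less than its standard error of 0.96. No member was called at week 19 or 23 by edgeR or DESeq2. Unadjusted p was under 0.05 for CD68 at week 19 (0.44 ± 0.14) and for CD163 at week 23, a level that 12.5% and 16.1% of all genes reached.

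In the placebo animals alone, CD68 was higher at weeks 7, 11 and 15 than at weeks 0 and 3 by 0.79 ± 0.13 on the log2 scale (adjusted p = 1.78e-07), and 20.6% of all genes were higher. TIMD4 was lower by 0.36 ± 0.14 (adjusted p = 0.0254), as 22.8% of genes were. Without M1008 that call on TIMD4 was lost (-0.26, adjusted p = 0.132). With the replicate block CD163, VSIG4, ITGAM, SIGLEC1 and CSF1R were called lower too, by 0.30 to 0.58 on the log2 scale. In that fit 4270 of 16232 genes were called lower. Study week and the age of the animals cannot be told apart in this comparison.

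Further macrophage genes were mostly higher or not called at week 15. The counts of these and the other lists stand beside 13.4% of all genes called higher and 8.82% lower at week 15, and 10.3% and 8.12% at week 0, and no list was tested as a set. Of 15 further genes of Kupffer cell identity and function, 7 were higher and 0 lower, with a median log2 fold change of 0.82 against -0.01 over all genes. HMOX1, which degrades haem, was higher by 2.49 ± 0.28, ID1, a transcriptional regulator, by 1.21 ± 0.38, and SLC11A1, a phagosomal metal transporter, by 1.05 ± 0.25. The complement chains C1QC (1.01 ± 0.29) and C1QA (0.94 ± 0.29) and the receptor kinase MERTK (0.92 ± 0.23) rose as well. CLEC4F, which marks Kupffer cells in rodents, was not called. At week 0 only HMOX1 and ID1 of these 15 were higher, and SLC40A1, the iron exporter, was lower (-0.59 ± 0.16). The iron exporter was also below placebo at week 15 by an amount under the fold limit (-0.55 ± 0.13, adjusted p = 0.00246).

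The ligands of CSF1R rose while the receptor was not called. CSF1 was 53.3 ± 5.94 CPM with wIFN-α (SD, n = 8) and 17.5 ± 4.21 CPM with placebo (n = 9) at week 15, a log2 fold change of 1.68 ± 0.13, and 1.47 ± 0.14 at week 0. IL34 rose by 0.73 ± 0.25 and 0.70 ± 0.21 at the same weeks. Of the 7 genes of this axis that could be tested, 4 were higher at week 15, the others being TYROBP, an adaptor of myeloid receptors, and SPI1, the myeloid transcription factor PU.1.

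Of 18 monocyte and inflammatory macrophage genes, 8 were higher and 0 lower at week 15, and 4 were higher at week 0. TNF rose by 3.07 ± 0.43, the monocyte chemokine CCL2 by 2.45 ± 0.42, the co-stimulatory ligands CD86 and CD80 by 2.33 ± 0.29 and 2.04 ± 0.45, and the Fc receptor FCGR1A by 1.76 ± 0.48. ITGB2, the β chain that pairs with ITGAM, was higher by 0.80 ± 0.26 at week 15, when ITGAM was not called. Of 7 genes of Toll-like receptors and related proteins, 5 were higher. They were TLR8, a sensor of single-stranded RNA (1.36 ± 0.28), CD180 (1.36 ± 0.53), LY96 (1.15 ± 0.13), TLR4 (0.90 ± 0.09) and MYD88 (0.80 ± 0.07). TLR4 and LY96 form the lipopolysaccharide receptor that CD14 serves, and CD14 itself was called at no week.

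Of 8 other scavenger receptors, CXCL16 (2.29 ± 0.23) and SCARB2 (1.22 ± 0.10) were higher at week 15 and COLEC12 was lower (-2.25 ± 0.79). STAB1 was lower at week 0 (-0.77 ± 0.21). Of 10 lysosomal genes, the lipase LIPA (1.15 ± 0.12) and the protease CTSS (1.02 ± 0.27) were among those higher at week 15, and LAMP1, CTSB and CTSD were not called. Of 7 genes of lipid-associated macrophages, FABP5 was lower (-1.83 ± 0.42) and none higher.

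**Figure D5:**
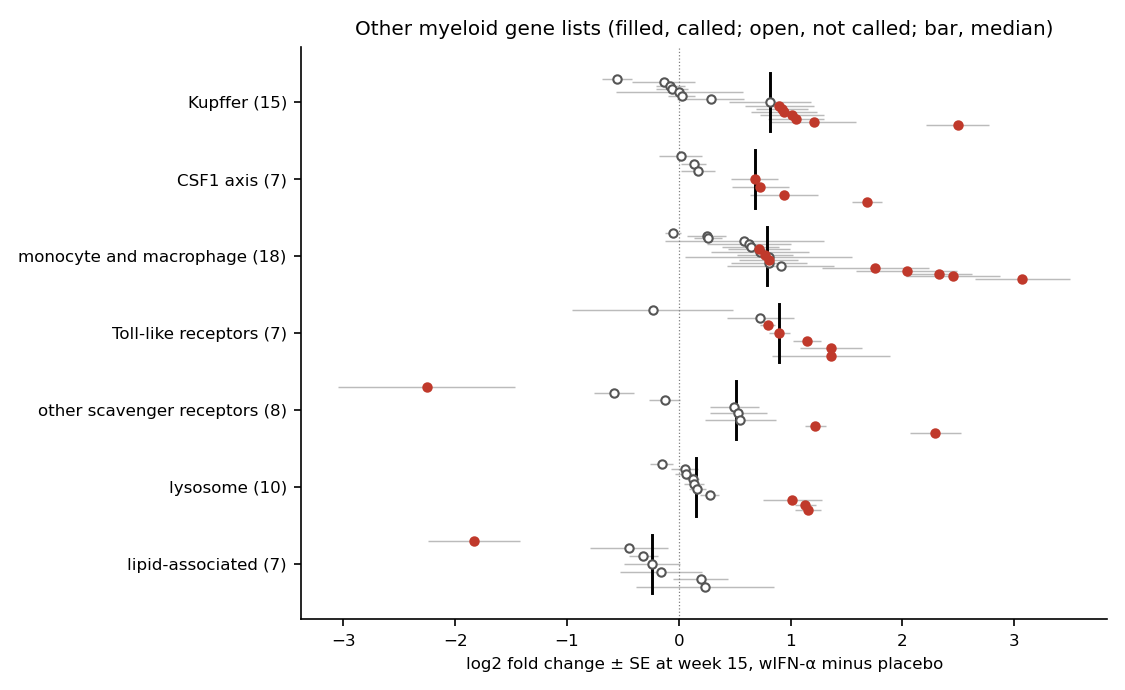
Log2 fold change ± SE at week 15, wIFN-α minus placebo, for the tested genes of 7 further myeloid lists (number of genes in brackets); filled points were called, open points were not, and the black bar is the median of the list. The medians of the Kupffer, CSF1 axis, monocyte and Toll-like receptor lists lie at 0.82, 0.68, 0.79 and 0.90, and that of the lipid-associated list lies at -0.24. The Toll-like receptor list includes related proteins.

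Markers of other cells also differed between the groups. At week 15 the 7 T cell genes summed to 114 to 238 CPM with wIFN-α and 47.9 to 95.1 CPM with placebo, without overlap, and 6 of 7 were higher. Of all single genes tested, 7.36% were higher without overlap and 13.4% were called higher at that week. CD2 rose by 1.87 ± 0.47, CD3E by 1.35 ± 0.11 and CD3D by 1.21 ± 0.34. Of 4 natural killer and cytotoxic genes 3 were higher (sum 5.67 to 24.7 CPM against 2.16 to 6.85 CPM), led by PRF1 (1.96 ± 0.37), and of 4 B cell genes MS4A1 (1.58 ± 0.30) and CD79A (0.99 ± 0.38) were. Of 8 neutrophil genes CSF3R (2.59 ± 0.33) and LTF (0.82 ± 0.18) were higher and MMP9 lower (-1.17 ± 0.40). At week 0, when ITGAM was below placebo, CSF3R was higher (1.59 ± 0.35) and MMP9 lower (-1.16 ± 0.32), and the other 6 were not called.

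Among structural cells, LYVE1 was higher (0.98 ± 0.17) and KDR lower (-1.42 ± 0.30) of 7 sinusoidal endothelial genes at week 15, and 3 of 7 stellate cell genes were lower, namely COL1A1 (-2.71 ± 0.97), COL1A2 (-2.49 ± 0.89) and COL3A1 (-1.12 ± 0.44). Of 8 hepatocyte genes, which were abundant in every group, CYP3A4 was lower (-0.70 ± 0.24). None of the genes found for these lists, nor of the 20 muscle genes, was at 0 in a whole group at weeks 0 or 15. The part that these cell types play in the levels of the members was not tested.

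The sequencing lane, taken from the deepest run of each biopsy, left the direction of SIGLEC1, CD163 and ITGAM the same in each lane. With weeks 0 to 15 pooled, the mean difference of log2(CPM + 1) within each of the 7 lanes was 0.30 to 1.66 for SIGLEC1, -1.28 to -0.16 for CD163 and -1.04 to -0.40 for ITGAM. For TIMD4 it was -0.13 to 0.48, above 0 in 6 of 7 lanes.

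Genes were also ranked by likeness to a mean of several receptors, from their levels alone. The receptors averaged did not all vary together. In the 88 biopsies off interferon with little muscle, r was 0.82 between MARCO and VSIG4 but 0.08 between CD163 and TIMD4. The ranking itself kept the biopsies rich in muscle reads. Against the mean standardized level of CD163, MARCO, VSIG4 and TIMD4 over the 104 biopsies off interferon, the genes of high Pearson r among the 13908 compared included CFP (0.84), OAS1 (0.83), ADORA3 (0.82) and HLA-DRB5 (0.78). Against SIGLEC1 over all 149 biopsies, they included NCKAP1L (0.91), IL10RA (0.90), HCLS1 (0.90) and CD1D (0.89). The biopsies share animals, depth and treatment, and these values are a description.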

How the data were processed

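Liver biopsies of WHV carrier woodchucks were grouped by the agent, animal and week of the labels (label week minus 1 from the start of dosing). The authors prepared poly(A) TruSeq libraries, sequenced paired 50 nt reads, aligned them with Bowtie2 to their own woodchuck transcriptome assembly (version 2, symbols by homology to other mammals) and counted with SAMtools. Tool versions and use of strand are not given in the sources used here. The deposited tables hold, per run, a symbol, RPKM and expected counts (whole numbers but for 118 of 3368022 non-zero entries, which were rounded after summing runs). Only the counts were tested, and the deposited RPKM gave transcript lengths by comparison with the counts. Symbols of 9 of 10 members matched RefSeq woodchuck genes, all but CD163. A symbol is an assembled transcript, and reads of closely related genes cannot be told apart.

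From 203 runs, those of 1 biopsy were summed to 164 biopsies, the viral row was dropped, and 149 biopsies were compared. Animal M1004 (7 biopsies), which the study left out as probably clearing the virus, and 8 biopsies of other weeks, including those at death, entered no group. Scaling was TMM. For each week the main test was edgeR's quasi-likelihood test (edgeR 4.0.16, R 4.3.3) after filterByExpr, with Benjamini-Hochberg adjustment over all genes tested. Differences of effects used 1 fit of all 16 groups and an adjusted p under 0.05 alone. Groups hold different animals, but each animal recurs across weeks. Biopsies of the same animal deviated together (median r of residuals 0.286 over 450 pairs, against -0.0294 over 5068 pairs of other animals), so the animal pairs the samples. For the effects at each week it was used as a replicate block in limma-voom (limma 3.58.1). For the differences of effects and the placebo comparison over time, the replicate block was a term per animal in the edgeR fit. Alternatives were DESeq2 1.42.0, limma-voom, RLE scaling, no filter, the deepest run only, sex, M1004, muscle, 1 fit of all groups, a 2-fold limit and leaving out in turn each wIFN-α animal from week 0 and each placebo animal at weeks 0, 11, 15 and 19. Leaving out M1008 at weeks 3, 7 and 23 or in the differences, and the week 3 biopsy of F1013 in the differences, was chosen after seeing the data. On simulated counts for week 15, edgeR recovered 200 of 200 changed genes and called 10 others of 15228. Recovery at the effect sizes and read counts of the members was not tested. Members and lists were chosen with earlier results of these data known. The text names all 10 members and, from each further list, genes called at weeks 0 or 15, at most 6 by size at week 15. SLC40A1, CLEC4F, LAMP1, CTSB and CTSD were named outside this rule, after their values were seen. For likeness, the rule took the 5 other genes of highest r. Some genes that these rules select are not reported here.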

Additional observations from a re-analysis of the deposited data

Results flagged for a closer look

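Each of the 10 members was examined in each group of 5 to 10 animals, which gave 100 sets of values. In 14 of these, 1 animal stood far from the others by Dixon's test, where chance gives about 1 in 20 for normally distributed values. Members were correlated and animals recur across weeks, so the sets are not independent and the 14 cannot be set against that share. For CD163 these were placebo animal M1008 at weeks 11, 15, 19 and 23 (14.2, 11.8, 8.58 and 13.5 CPM) and wIFN-α animal F1013 at week 15 (3.67 CPM). M1008 also stood apart at week 23 for VSIG4 (31.6 CPM) and CSF1R (160.2 CPM). For ITGAM they were placebo animals M1001 at week 11 (11.1 CPM) and F1015 at week 23 (15.7 CPM), and F1013 of the wIFN-α group at weeks 19 and 23 (7.61 and 7.88 CPM). At week 15 of wIFN-α, M1003 was high for MARCO (56.3 CPM) and F1020 for CD14 (106.5 CPM) and SIGLEC1 (126.8 CPM).

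The effect of wIFN-α differed between weeks 15 and 23 for SIGLEC1 by 2.23 and for TIMD4 by 1.17 on the log2 scale, by the test of the difference itself (edgeR, 1 fit of all 16 groups).

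Biopsies that entered no comparison held values above every placebo biopsy, of the same week for M1004 and of all compared weeks for the others. In wIFN-α animal M1004, before treatment, MARCO was 32.6, CD68 126.3, TIMD4 29.2 and SIGLEC1 37.4 CPM. At weeks 0, 3, 7, 11, 15 and 19 its CD68 was 236.4, 256.2, 226.5, 196.3, 205.3 and 175.0 CPM. Its TIMD4 was 18.7, 18.9, 18.3, 19.5 and 18.9 CPM at weeks 3, 7, 11, 15 and 19, and its SIGLEC1 was 83.8, 67.9, 59.6, 60.4 and 76.3 CPM at weeks 0, 3, 7, 11 and 15. In wIFN-α animal M1006, in a biopsy whose label gives week 3, TIMD4 was 26.7 CPM. In the biopsy of F1020 at death, CD14 was 136.7, VSIG4 57.9 and ITGAM 21.2 CPM. In that of F1023, MARCO was 86.9, CD14 161.7, VSIG4 103.4, TIMD4 43.2, ITGAM 39.1 and SIGLEC1 88.6 CPM. Placebo animal M1010 had MRC1 at 52.5 CPM in a biopsy labelled week 18. Only high values were flagged, and low ones occurred too. In M1004, CD163 was 0.070 to 0.588 CPM at weeks 0 to 15, below every placebo biopsy of the same week. In placebo animal F1024 at death, CSF1R was 15.3 CPM, below every placebo biopsy of the compared weeks. These differences were not tested.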

How the results depend on the processing

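Of the alternatives to the weekly tests, a 2-fold limit left 0 members higher at weeks 0, 3 and 7, 1 at week 11 and 1 at week 15, and 0 lower at weeks 3 and 7. Members called lower at week 0 numbered 2 by DESeq2, 2 without biopsies rich in muscle reads, 2 in 1 fit of all groups and 3 with limma-voom and the animal as a replicate block. At week 3, 0 were higher without biopsies rich in muscle reads. At week 7, 1 was lower without the filter, with the deepest run only, in 1 fit of all groups and without M1008, an alternative chosen after seeing the data. At week 11, 2 were lower by DESeq2, with M1004 and in 1 fit of all groups. At week 15, 0 were lower without the filter, with the deepest run, with sex as a covariate and without biopsies rich in muscle reads. With the replicate block, 3 members were higher in week 15 minus the mean of weeks 0 and 3, 1 was lower in week 15 minus week 23 and 6 were lower over time in placebo, where 0 were lower without M1008. In these blocked fits 839, 2275 and 4270 of 16232 genes were called in the same directions. Leaving out 1 animal in turn, of either group at weeks 0, 11 and 15 and of the wIFN-α group alone at weeks 3 and 7, gave 1 to 2 higher and 1 to 2 lower at week 0, 0 to 1 higher at week 3, 1 to 4 lower at week 7, 0 to 2 lower at week 11 and 0 to 1 lower at week 15. No reported difference changed sign under any alternative run. Of 120 member differences, 43 were smaller than their standard error and are given no direction; none of these was called under any alternative. The cause of these changes was not tested.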

Other observations

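Levels of several members at week 0 were also laid out by sex. At that week CSF1R was 28.4 ± 12.0 CPM (SD, n = 6) in females given wIFN-α and 59.4 ± 21.8 CPM (n = 6) in placebo females, whereas in males it was 57.0 ± 13.3 CPM (n = 5) and 57.8 ± 19.8 CPM (n = 6). MRC1 was 11.4 ± 5.497 CPM and 24.8 ± 9.61 CPM in females and 25.7 ± 5.38 CPM and 25.5 ± 7.58 CPM in males, and CD163 was 1.25 ± 0.90 CPM and 3.77 ± 0.43 CPM in females and 4.56 ± 1.51 CPM and 4.71 ± 3.29 CPM in males. Before dosing, at week -3, CSF1R was 32.8 ± 14.1 CPM in wIFN-α females and 40.6 ± 15.2 CPM in placebo females, and 58.9 ± 5.76 CPM and 49.2 ± 14.7 CPM in males. At week -3 MRC1 was 23.6 ± 17.2 CPM and 24.6 ± 10.2 CPM in females and 32.6 ± 7.37 CPM and 26.5 ± 9.62 CPM in males. CD163 was then 4.16 ± 4.54 CPM and 2.94 ± 1.23 CPM in females and 8.01 ± 6.43 CPM and 6.04 ± 5.32 CPM in males. At week 0 ITGAM was lower with wIFN-α in both sexes, with means of 3.07 and 6.25 CPM in females and 3.30 and 7.08 CPM in males. SIGLEC1 was higher in both, with means of 30.75 and 22.6 CPM in females and 50.5 and 22.9 CPM in males. TIMD4 was 11.5 ± 3.45 CPM with wIFN-α and 14.1 ± 4.90 CPM with placebo in females, and 19.8 ± 3.22 CPM and 13.1 ± 6.03 CPM in males. At week 15 the mean of CSF1R was higher with wIFN-α than with placebo in each sex (50.2 and 40.8 CPM in 5 and 5 females, 63.7 and 53.1 CPM in 3 and 4 males). The females of the wIFN-α group include F1023 at week 0 and F1018 at week -3, whose biopsies were rich in muscle reads, and the difference between the sexes was not tested.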
